A study of Mus musculus with 4 samples.

Results

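The aminoacyl-tRNA synthetases are the enzymes that load amino acids onto transfer RNAs, and 36 of their genes were read by symbol from a table of 21705 genes. Of these, 20 encode cytosolic enzymes and 16, whose symbols end in 2, encode enzymes of the mitochondrion. All 36 passed a filter on low values, set at 5 ppm of the mean library total for a gene's mean, and the 9933 genes that passed it served as the background for every count below. RNA-seq libraries were made from mouse splenic T cells sorted by flow as CD4 or CD8, either on the day of allogeneic bone marrow transplant or later, and the question addressed by the design was how the cells differed between those times. There were 4 libraries, 1 for each cell type and time. Every library came from 5 mice pooled before the sort and carried the strain label C57bl/6. Titles of the libraries at transplant include Donor. For the later ones the characteristics give 14 days after transplant, whereas the titles give day 12. Whether the later sort kept donor cells only was not stated, no syngeneic transplant was among the libraries, and the source field names innate lymphoid cells where the other fields name T cells.

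Each synthetase joins a given amino acid to the transfer RNAs that carry its codons, and the ribosome depends on these charged transfer RNAs for every residue it adds. The cytosolic enzymes supply the ribosomes that translate nuclear messages, and several of them sit in a large multi-synthetase complex. The mitochondrial enzymes are also encoded in the nucleus, are imported, and supply the ribosomes that make the respiratory chain subunits encoded by mitochondrial DNA. T cells that are activated are known to raise protein synthesis and amino acid uptake, and many cytosolic synthetase genes are textbook targets of ATF4, the transcription factor of the amino acid response.

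Depth, estimated from the value of 1 read in each library, was between 9873851 and 23633544 reads, lowest in the CD8 library after transplant. The T cell markers together held 0.346 to 0.424% of each library's total value, and Cd4 and Cd8a followed the labels. Zbtb7b, the other CD4 marker, and Cd8b1, the other CD8 marker, also followed them at each time, but their levels changed. Zbtb7b went from 4802 to 2223 in CD4 and from 99.1 to 566 in CD8 cells. Cd8b1 went from 22739 to 10140 in CD8 and from 435 to 345 in CD4 cells. Markers of other cells moved with time. The summed value of 6 neutrophil markers was 15388 and 2765 at transplant in the CD4 and CD8 libraries and 28132 and 24024 after it, led by S100a9, and none was at 0 in any library. The 5 erythroid markers summed to 239 and 39.9 at transplant and to 1341 and 1138 after it, also with none at 0. The 7 macrophage and monocyte markers summed to 5312 and 811 at transplant and 3057 and 2911 after it, with Cd14 at 0 in the CD8 library at transplant. The 6 NK cell markers summed to 2036 and 1198 at transplant and 758 and 8397 after it, with Klra8 at 0 in both later libraries and Ncr1 at 0 in the later CD4 library. Their members differed in CD8 cells. Gzma went from 461 to 5140, Klrk1 from 476 to 3017 and Klrb1c from 69.4 to 175, whereas Klre1 went from 149 to 62.1 and Ncr1 from 9.91 to 2.82. The 6 dendritic cell markers summed to 845 and 354 at transplant and 405 and 1499 after it, with Siglech at 0 in the later CD8 library. In CD8 cells Itgax went from 195 to 1119 and Xcr1 from 66.9 to 245, with Flt3 at 52.9 and 49.4. The sums of 6 B cell markers lay between 224 and 415, with Pax5 at 0 in 3 libraries, and their members differed: Cd79b went from 309 to 52.2 in CD8 cells and Cd22 from 133 to 353 in CD4 cells. The sums of 6 innate lymphoid markers, some of them also T cell genes, lay between 10267 and 12962, but Id2 went from 1475 to 7599 in CD4 and from 970.4 to 8025 in CD8 cells, and Il7r from 10224 to 2799 and from 11305 to 1289. The part of these cells in the synthetase values was not tested.

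After transplant the cytosolic synthetase genes were mostly higher and the mitochondrial ones mostly lower than at transplant, in CD4 and in CD8 cells alike. Changes are given as log2 ratios of the later value to the value at transplant, after a pseudocount of 14.7, or 1 ppm of the average total, was added. The median log2 ratio of the 20 cytosolic genes was 0.34 in CD4 cells and 0.51 in CD8 cells. The median of the 16 mitochondrial genes was -0.44 and -0.39, and that of all 9933 genes -0.08 and 0.02. With 1 library in each group there was no test between groups and no replicate check. Intervals on single ratios are 95% exact conditional binomial intervals, which cover counting error only, and reads are not independent molecules.

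In CD4 cells 16 of the 20 cytosolic genes had a log2 ratio above 0, against 45.9% of all genes tested, and in CD8 cells 18 of 20 did, against 51% of all genes. Of the 16 mitochondrial genes 4 were above 0 in each cell type, and these were the same genes, Rars2, Iars2, Fars2 and Sars2. Most of the changes were small. At least 2-fold higher were 2 cytosolic genes in CD4 cells, Vars and Gars, where 12.1% of all genes passed this level, and 2 in CD8 cells, Aars and Gars, where 15% did. At least 2-fold lower were 2 mitochondrial genes in CD4 cells, Ears2 and Lars2, where 10.8% of all genes were, and Ears2 alone in CD8 cells, where 11% were. These shares are close to the background, so the 2-fold counts show nothing about the family. No cytosolic gene was 2-fold lower and no mitochondrial gene 2-fold higher in either cell type. The counting interval of the plain ratio lay wholly above 1 for 15 cytosolic genes in CD4 cells and 18 in CD8 cells, against 38.4 and 42.3% of all genes. It lay wholly below 1 for 11 and 10 mitochondrial genes, against 46.5 and 39.9% of all genes.

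Summed over the 20 cytosolic genes, the deposited value was 28084 in CD4 and 28163 in CD8 cells at transplant, and 37793 and 39994 after it. The 15 mitochondrial genes other than Lars2 summed to 6989 and 6415 at transplant and 6164 and 6435 after it. The ratio of these sums, which can be compared between libraries but not read as a ratio of molecules, was 4.02 and 4.39 at transplant and 6.13 and 6.21 after it. The 2 cell types thus started at similar sums and stood at similar sums later. In RNA from sorted cells in bulk, fewer cells of a type and less RNA per cell cannot be told apart.

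**Figure D1:**
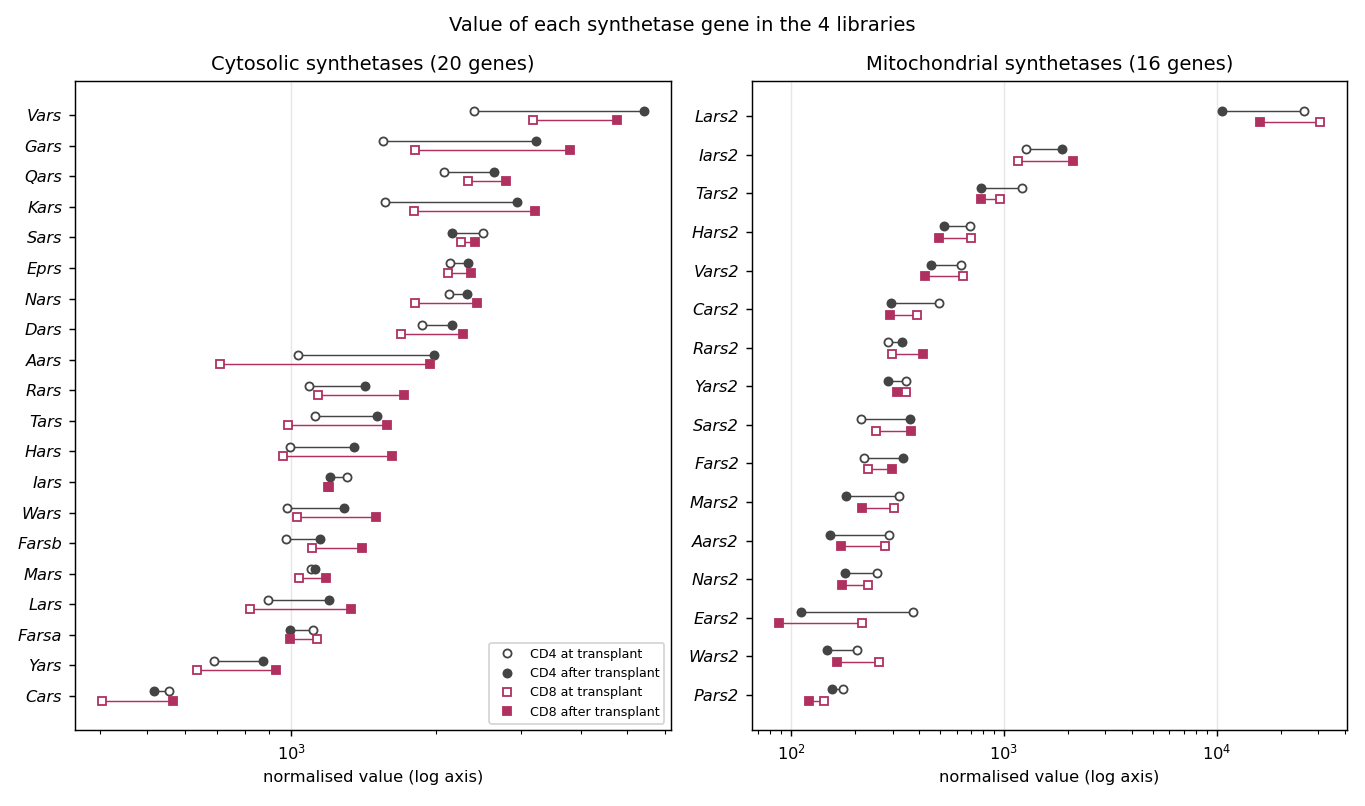
Deposited values (log axis) of the 20 cytosolic and the 16 mitochondrial synthetase genes in the 4 libraries, 1 point per gene and library, with no error bars because each group held 1 library. Vars, Gars, Kars and Aars are higher in both later libraries, and Lars2, between 10642 and 30699.5, lies far above the other mitochondrial genes.

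Vars, the valyl enzyme, had a value of 2394 in CD4 cells at transplant, 5405 in CD4 cells after it, 3189.5 in CD8 cells at transplant and 4753 in CD8 cells after it. Both later libraries were above both libraries at transplant, and the later CD4 library was the highest. The plain ratio was 2.26 in CD4 cells (interval 2.17 to 2.35) and 1.49 in CD8 cells (1.42 to 1.56). Gars, the glycyl enzyme, whose gene supplies cytosol and mitochondrion, went from 1548 to 3224 in CD4 and from 1811 to 3791 in CD8 cells. Its ratios of 2.08 and 2.09 were the closest to each other among the 4 genes described here. Kars, the lysyl enzyme, which likewise serves both compartments and belongs to the multi-synthetase complex, had 1568 and 2948 in CD4 cells and 1803 and 3206 in CD8 cells, ratios of 1.88 and 1.78.

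Aars, the alanyl enzyme, had 1031 at transplant and 1976 after it in CD4 cells, and 712 and 1944 in CD8 cells. The later libraries were at nearly the same level, and the library of CD8 cells at transplant was the lowest. The ratios were 1.92 (interval 1.80 to 2.05) and 2.73 (2.50 to 2.97), so the CD8 ratio was the largest of any synthetase gene here. The Aars transcript used for length overlaps Exosc6, an exosome subunit gene on the same strand, over 1326 bases. Exosc6 itself was at 404 and 345 in CD4 cells and 460.3 and 349 in CD8 cells, lower after transplant in both.

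The sequences upstream of Aars and Aars2 are shown because Aars and Aars2, the enzymes of the same amino acid, had the widest gap between the compartments in both cell types, as described below. They are the 250 bases before the annotated start from RefSeq on build GRCm38.p6, chr8:111033592-111033841 on the plus strand and chr17:45506582-45506831 on the plus strand, with motif matches in capitals.
Aars: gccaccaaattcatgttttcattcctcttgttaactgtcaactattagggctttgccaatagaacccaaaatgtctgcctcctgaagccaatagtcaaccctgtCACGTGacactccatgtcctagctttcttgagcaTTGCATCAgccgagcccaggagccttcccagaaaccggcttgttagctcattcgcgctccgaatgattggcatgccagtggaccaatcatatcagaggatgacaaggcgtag
Aars2: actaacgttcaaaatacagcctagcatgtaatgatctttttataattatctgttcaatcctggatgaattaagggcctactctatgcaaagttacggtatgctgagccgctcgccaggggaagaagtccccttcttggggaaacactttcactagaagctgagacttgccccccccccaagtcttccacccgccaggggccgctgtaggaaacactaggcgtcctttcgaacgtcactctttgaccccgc
The capitals in Aars mark an E-box, CACGTG, that begins 146 bases before the start, and TTGCATCA, 112 bases before it, which on the other strand reads as the composite C/EBP-ATF motif TGATGNAA. These matches do not overlap each other. The Aars2 stretch held neither. RefSeq held 2 start windows for Aars2, and only the first listed is shown. Neither motif was found in either window.

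The next group of cytosolic genes was higher by less. Hars, the histidyl enzyme, went from 994 to 1354 in CD4 and from 961 to 1619 in CD8 cells, and its first 195 bases are shared with Hars2 on the opposite strand. Tars, the threonyl enzyme, stood at 1118 and 1509 in CD4 and at 985 and 1584 in CD8 cells, and Lars, the leucyl enzyme, at 895 and 1200.4 and at 822 and 1329. Wars, the tryptophanyl enzyme, known as an interferon-gamma-induced gene, had 979 and 1287 in CD4 and 1027 and 1501 in CD8 cells. Its log2 ratios of 0.39 and 0.54 lie within those of the other synthetases of this group. Rars, the arginyl enzyme, had log2 ratios of 0.38 and 0.59, Yars, the tyrosyl enzyme, 0.33 and 0.54, and Qars, the glutaminyl enzyme, 0.34 and 0.26. For all 7 of these genes the counting intervals lay above 1 in both cell types.

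Nars, the asparaginyl enzyme, had log2 ratios of 0.12 in CD4 and 0.43 in CD8 cells. Dars, the aspartyl enzyme, had 0.20 and 0.43. Eprs, whose protein charges both glutamate and proline, had 0.13 and 0.16, with values between 2122 and 2368 in all libraries. These differences are small, although their counting intervals lay above 1 in both cell types. For Mars, the methionyl enzyme, the log2 ratio was 0.02 in CD4 cells, where the interval of the plain ratio included 1 (0.945 to 1.09), and 0.19 in CD8 cells.

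A few cytosolic genes did not share the direction of the rest. Sars, the seryl enzyme, went from 2504 to 2163 in CD4 cells, a ratio of 0.864 (interval 0.821 to 0.909), and from 2251 to 2416 in CD8 cells, a ratio of 1.07 (1.01 to 1.14). Iars, the isoleucyl enzyme, had 1307 and 1204 in CD4 and 1198 and 1192 in CD8 cells. The level of Iars was therefore nearly the same in all libraries, and its transcript shares 1656 bases at 96.0% identity with a processed pseudogene, Gm4849, that was not in the table. Cars, the cysteinyl enzyme, stood at 557 and 517 in CD4 cells, where the interval included 1 (0.834 to 1.03), and at 404 and 568 in CD8 cells, where it did not (1.23 to 1.61). With library totals made equal, the log2 ratios of Cars and Iars in CD4 cells changed sign, to 0.04 and 0.03, and that of Iars in CD8 cells to 0.08.

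The cytosolic phenylalanyl enzyme is built from an alpha chain, Farsa, and a beta chain, Farsb, and their messages did not move together. Farsa had 1109 and 995 in CD4 and 1129 and 993 in CD8 cells, ratios of 0.897 and 0.880 with intervals below 1. Farsb had 975 and 1149.6 in CD4 and 1103 and 1400.1 in CD8 cells, ratios of 1.18 and 1.27 with intervals above 1. At transplant Farsa was the higher of both per length in each cell type, at 607 and 618 per kilobase against 479 and 542. After transplant the order was the other way round, at 545 and 544 for Farsa against 565 and 688 for Farsb. The later gap in CD4 cells was small, and the order rests on the transcript lengths used. The Farsb transcript shares 250 bases with Sgpp2 on the opposite strand. Across the alternatives the log2 ratio of Farsa in CD4 cells ranged from -0.156 to -0.006, so it could come close to no change.

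The 8 synthetases of the multi-synthetase complex, which include Kars, Qars, Eprs and Iars, had median log2 ratios of 0.27 in CD4 and 0.34 in CD8 cells. The 12 cytosolic enzymes outside it had medians of 0.36 and 0.54. The 3 scaffold proteins of the complex differed among themselves. Aimp1 had 834 and 1203 in CD4 and 966 and 1268 in CD8 cells, log2 ratios of 0.52 and 0.39, whereas Aimp2 had 0.00 and 0.10 and Eef1e1 -0.26 and 0.04. Split by the fold of the catalytic domain, the 9 class I cytosolic enzymes had medians of 0.34 and 0.54 and the 10 class II enzymes 0.33 and 0.55, nearly the same. Eprs, which holds a domain of each class, was in neither list.

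Among the mitochondrial genes Lars2, the leucyl enzyme, stood apart in level. It had 25708 in CD4 cells at transplant, 10642 in CD4 cells after it, 30699.5 in CD8 cells at transplant and 16039.5 in CD8 cells after it. Both later libraries were lower than both libraries at transplant. The ratios were 0.414 (interval 0.406 to 0.423) and 0.522 (0.512 to 0.534). Lars2 ranked 41st of all genes by value in CD4 and 30th in CD8 cells at transplant, and 130th and 66th after it, and held between 63.3 and 82.7% of the summed mitochondrial synthetase values. Its transcript of 3894 bases has a stretch of 72 bases, from base 3278 to base 3349, that is 98.6% identical to Gm15564, and 50 bases that are 96% identical to AA474408. Neither is in the table, and the part of reads from such sequences in the Lars2 values was not tested. Without Lars2 the median of the other 15 mitochondrial genes was -0.44 in CD4 and -0.38 in CD8 cells.

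Ears2, the mitochondrial glutamyl enzyme, had 373 and 111 in CD4 cells and 216 and 87.4 in CD8 cells. It was the lowest ratio of the family in both cell types, 0.299 (interval 0.245 to 0.363) and 0.406 (0.302 to 0.537). The first 89 bases of its transcript overlap Ubfd1 on the opposite strand, whose values were 1177 and 660.1 in CD4 and 1290.0 and 687 in CD8 cells and were likewise lower after transplant. Strandedness of the counting was not stated, so reads of such overlaps cannot be assigned. Aars2, the mitochondrial alanyl enzyme, went from 288 to 153 in CD4 and from 275 to 172 in CD8 cells, opposite to Aars.

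Of the remaining mitochondrial genes with lower values, Mars2 had log2 ratios of -0.79 in CD4 and -0.47 in CD8 cells, and Cars2 had -0.73 and -0.40. Tars2, the most abundant per length after Lars2, went from 1217 to 784 in CD4 and from 958 to 783 in CD8 cells. Vars2 had log2 ratios of -0.45 and -0.59, Wars2 -0.44 and -0.61, Hars2 -0.39 and -0.49, and Nars2 -0.47 and -0.38. All these enzymes charge mitochondrial transfer RNA for the amino acid of their cytosolic namesakes, and all had intervals below 1 in both cell types. Yars2 had -0.28 and -0.14, with an interval that included 1 in CD8 cells (0.762 to 1.06). For Pars2, the prolyl enzyme, with 175 and 155 in CD4 and 142 and 121 in CD8 cells, the intervals included 1 in both (0.730 to 1.08 and 0.651 to 1.11).

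Among the 4 mitochondrial genes with higher values, Iars2, the isoleucyl enzyme, had the largest ratio in CD8 cells and the third largest in CD4 cells, with 1269 and 1869.7 in CD4 and 1171 and 2115 in CD8 cells, ratios of 1.47 (interval 1.38 to 1.57) and 1.81 (1.68 to 1.94). Its transcript shares 2034 bases with Rab3gap2 on the opposite strand. Sars2, the seryl enzyme, had 212 and 361 in CD4 and 251 and 367 in CD8 cells, and Fars2, a phenylalanyl enzyme of a lone chain, 221 and 335 in CD4 and 230.4 and 298 in CD8 cells. For both the later libraries were above those at transplant, with ratios of 1.70 and 1.46 for Sars2 and 1.51 and 1.29 for Fars2. Rars2, the arginyl enzyme, had 287 and 330.5 in CD4 and 299 and 417 in CD8 cells, and was the only one of the 4 whose cytosolic namesake had the larger ratio in both cell types.

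Set side by side by amino acid, 17 pairs of a cytosolic and a mitochondrial gene could be formed, with Eprs paired with both Ears2 and Pars2 and Fars2 with both Farsa and Farsb. Dars, Gars, Kars and Qars had no partner among the members. In 13 pairs the cytosolic gene had the larger log2 ratio, and these were the same 13 in CD4 and CD8 cells. The other 4 pairs were Sars with Sars2, Iars with Iars2, and Fars2 with each of Farsa and Farsb. The median difference, cytosolic minus mitochondrial, was 0.63 in CD4 and 0.81 in CD8 cells on the log2 scale. It was widest for alanine, at 1.78 and 2.06, and at least 1 in 5 pairs in CD4 and 6 in CD8 cells, of which those of alanine, leucine, valine and glutamate were common to both. For serine the difference was -0.94 and -0.42, and for isoleucine -0.67 and -0.85. For Farsb and Fars2 in CD8 cells it was -0.01.

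**Figure D2:**
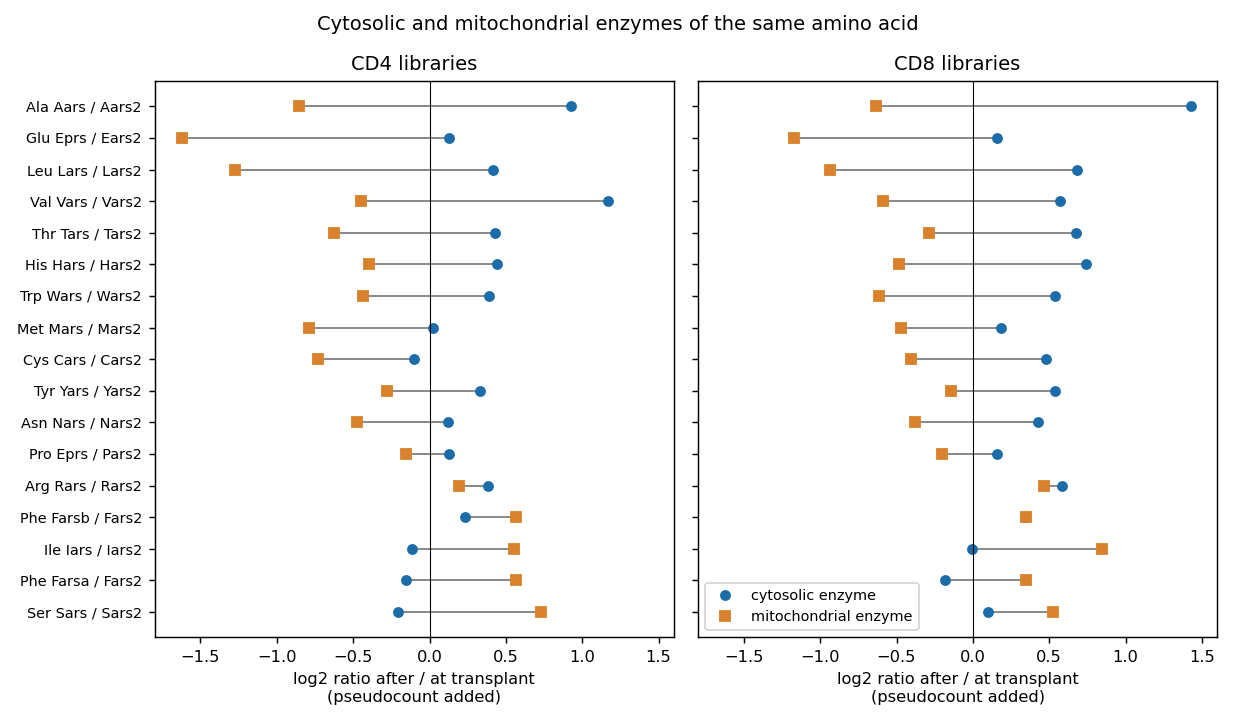
Log2 ratio of the value after transplant to that at transplant for the cytosolic (circles) and the mitochondrial enzyme (squares) of each of 17 pairs, in CD4 (left) and CD8 libraries (right), with a line joining each pair. The square lies left of the circle in 13 pairs in each panel, and the points of Farsb and Fars2 coincide in the CD8 panel.

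The CD4 and CD8 ratios were compared gene by gene. They come from separate libraries, which share the sequencing design and the transplant. Across the 36 genes, as a description over genes, Pearson's r was 0.93 and Spearman's rho 0.93, and 34 genes had the same sign in both cell types. Across all 9933 genes r was 0.89 and 87.3% had the same sign, so a like agreement was found for genes in general. The exceptions among the synthetases were Sars and Cars. The CD8 ratio was the larger in 26 of the 36 genes, which is 72.2%, against 62.8% of all genes. Vars was the clearest case of the opposite order, with 1.17 in CD4 and 0.57 in CD8 cells, and Aars and Cars were larger in CD8 cells by the values given above.

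**Figure D3:**
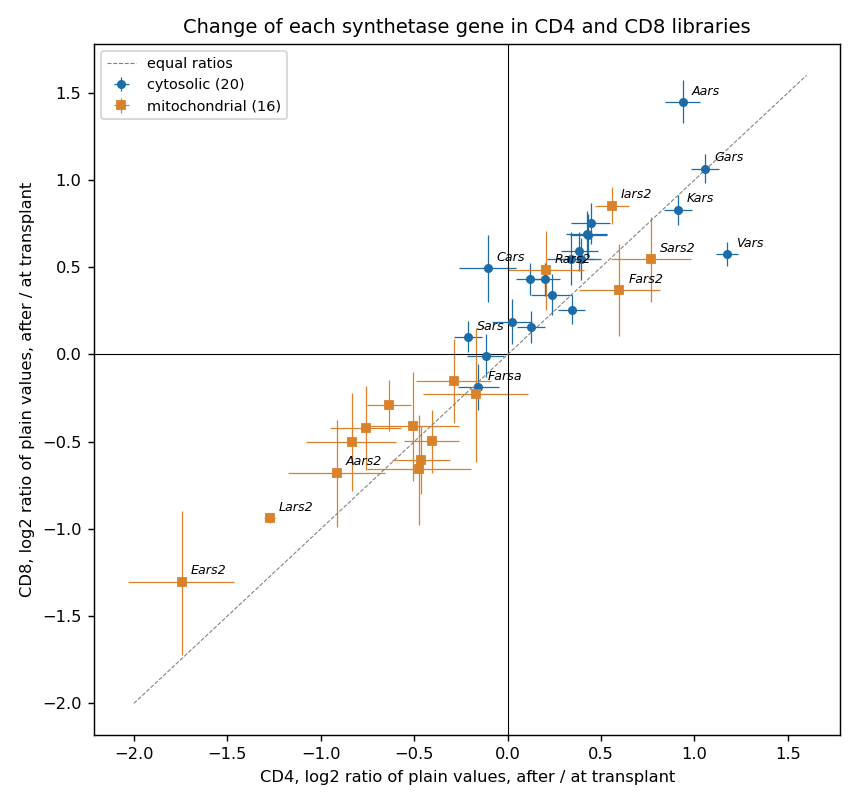
Log2 ratio after against at transplant in CD4 cells (horizontal) and in CD8 cells (vertical) for each synthetase gene, cytosolic and mitochondrial marked apart, with the line of equal ratios. Cytosolic genes lie mostly at the upper right and mitochondrial genes mostly at the lower left, with Vars below the line at 1.17 and 0.57 and Aars above it at 0.93 and 1.43.

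Between the cell types at the same time the synthetases differed little. At transplant the median log2 ratio of CD4 to CD8 was 0.06 for cytosolic and 0.03 for mitochondrial genes, against 0.14 for all genes. After transplant it was -0.09 and -0.01, against 0.03. The medians at transplant depend on the scaling of the libraries. With trimmed means of M-values they turned to -0.10 for cytosolic, -0.13 for mitochondrial and -0.02 for all genes, and with medians of ratios to -0.12, -0.15 and -0.04. They therefore have no direction that can be stated, and the counts above 0 at transplant have the same limit. At transplant 12 of 20 cytosolic and 9 of 16 mitochondrial genes were above 0, where 72.1% of all genes were, and after transplant 4 and 8 were, where 55.2% were. No synthetase was 2-fold apart between the cell types at either time, where 4.92% of all genes passed that level towards CD4 cells and 1.48% towards CD8 cells at transplant, and 2.42 and 0.956% after it. The largest log2 differences at each time were those of Ears2 at transplant, with a CD4 to CD8 ratio of 1.73 (interval 1.49 to 2.01), and Lars2 after transplant, with 0.663 (0.647 to 0.681). At transplant Aars was higher in CD4 cells, with a ratio of 1.45 (1.33 to 1.57), and after transplant its ratio was 1.02, with an interval that included 1. Vars was lower in CD4 cells at transplant, with a ratio of 0.751 (0.717 to 0.786), and higher after it, with 1.14 (1.09 to 1.19).

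To compare levels between genes, values were divided by the length of the principal transcript in kilobases and averaged over the libraries. The cytosolic genes ranged from 159 per kilobase for Cars to 1186 for Kars, with a median of 599. The mitochondrial genes had a median of 143, and without Lars2 ranged from 22.6 for Mars2 to 389.8 for Tars2, with a median of 128. Lars2 itself was at 5334. After Kars followed Gars at 1089.7, Vars at 951 and Dars at 919.7. The ranges of the compartments overlapped, with Iars2 at 294 above Lars at 267 and Aars at 246. The low place of Mars2 goes with a transcript of 11294 bases, and the annotation used by the submitters was not given in the sources used here.

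Windows from 250 bases before to 50 bases after the start of the same RefSeq build were searched on both strands, and a window with several matches was counted once. They were found for 13 cytosolic genes and 14 mitochondrial genes by Entrez identifier, and those of Cars, Hars, Lars, Nars, Rars, Vars, Wars, Hars2 and Pars2 were not matched. Members were counted by gene and the background by window. TGATGNAA is the composite motif bound by C/EBP and ATF factors such as ATF4. It was present for 5 of 13 cytosolic genes (38.5%), for 0 of 14 mitochondrial genes and in 3.97% of all 32851 windows. Aars holds a further match beside the upstream one shown above. It and the matches of the other cytosolic genes, with flanks and with the match in capitals, are shown because they are the members that share it.
Aars, chr8:111033840-111033869, plus strand: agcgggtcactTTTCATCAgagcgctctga
Gars, chr6:55037941-55038000, plus strand: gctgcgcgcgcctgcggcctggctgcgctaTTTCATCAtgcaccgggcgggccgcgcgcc
Iars, chr13:49682126-49682155, plus strand: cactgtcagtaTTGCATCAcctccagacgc
Tars, chr15:11399659-11399703, minus strand: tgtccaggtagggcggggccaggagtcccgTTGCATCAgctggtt
Yars, chr4:129189895-129189924, plus strand: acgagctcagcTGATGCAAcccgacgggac
Asns, chr6:7693210-7693262, minus strand: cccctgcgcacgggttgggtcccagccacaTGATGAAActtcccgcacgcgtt
Asns, the asparagine synthetase gene and a textbook ATF4 target, is given as a reference and is no aminoacyl-tRNA synthetase. The downstream match of Aars begins 9 bases after the start, those of Iars and Yars lie 7 and 3 bases after it, and those of Gars and Tars 30 and 15 bases before it. A match is a run of letters and not a measured site.

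The 5 cytosolic genes with the composite motif had median log2 ratios of 0.43 in CD4 and 0.68 in CD8 cells, with ranges of -0.12 to 1.05 and -0.01 to 1.43. The 8 without it had medians of 0.16 and 0.22, with ranges of -0.21 to 0.90 and -0.18 to 0.83. The ranges overlap, with Iars among those that hold the motif and Kars among those that do not. The E-box CACGTG, which Myc and related factors bind, was found for 4 cytosolic genes (Aars, Farsb, Iars and Tars, 30.8%) and for Ears2 (7.14%), against 7.15% of all windows. The NRF1 core GCGCANGC was found for 5 cytosolic (38.5%) and 5 mitochondrial genes (35.7%), among them Iars2 and Rars2, against 9.95% of all windows. The ETS core CCGGAAG was found for 5 (38.5%) and 4 (28.6%), against 8.86% of all. For the cytosolic genes each of these motifs, and not the composite one alone, was above the share of all windows.

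Neighbouring steps of the pathway were described by the same counts and medians. Of 30 cytosolic translation factors 15 were above 0 in CD4 and 17 in CD8 cells, near the 45.9 and 51% of all genes, with medians of -0.01 and 0.09, and none was 2-fold higher or lower. Within them Etf1, the factor that ends translation at stop codons, had 2807 and 4684 in CD4 and 2492 and 4874 in CD8 cells, and Eef1b2, a subunit of the exchange factor of elongation factor 1, 17947 and 10738 and 22009 and 11519. The 11 mitochondrial translation factors had medians of 0.08 and 0.14, above those of the mitochondrial synthetases. The 31 genes of transfer RNA maturation and modification had medians of -0.02 and -0.07, with Pop1, a subunit of RNase P, at 1.30 and 1.33 and Trit1, which modifies a base beside the anticodon, at -1.03 and -0.93. The 21 genes of RNA polymerase III and its factors, which transcribe transfer RNA genes, had medians of -0.23 and 0.00, with Brf1 at -0.93 and -0.85.

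The mitochondrion makes its glutaminyl transfer RNA by amidating a glutamate that was loaded first, and formylates its initiator methionine. The 4 genes of these steps had median log2 ratios of 0.15 and 0.14. Qrsl1, a subunit of the amidotransferase, had 254 and 326 in CD4 and 185 and 377 in CD8 cells, with log2 ratios of 0.34 and 0.97. Gatc, another subunit, had 0.15 and 0.23, and Mtfmt, the formyltransferase, 0.15 and 0.06. Of 5 genes of proofreading and recycling of transfer RNA that passed the filter, 4 were above 0 in CD4 and 5 in CD8 cells, against 45.9 and 51% of all genes, with medians of 0.34 and 0.60. Among them Aarsd1, which removes serine wrongly loaded on alanyl transfer RNA, had 334 and 496 in CD4 and 314 and 544 in CD8 cells.

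The list of ATF4 and genes known as its targets, which holds no synthetase, was mixed. Of 28 genes 20 passed the filter on low values, with median log2 ratios of 0.29 and 0.25. At least 2-fold higher were 3 in CD4 and 6 in CD8 cells, against 12.1 and 15% of all genes, and 2 were at least 2-fold lower in each, against 10.8 and 11%. Apart from the count of 6, these are near the background. Asns had 18.6 and 355 in CD4 and 7.43 and 439 in CD8 cells, and Psat1, an enzyme of serine synthesis, 624 and 1808 and 586 and 2405. Both were far higher in the later libraries. Ddit3, which encodes the stress factor CHOP, went the other way, from 308 to 99.8 in CD4 and from 253 to 111 in CD8 cells, and its transcript overlaps Mars on the opposite strand over 68 bases.

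The 6 genes of the kinases of the translation factor eIF2alpha and their regulators had medians of 0.21 and 0.31. Eif2ak4, which encodes GCN2, the kinase that senses uncharged transfer RNA, had 307 and 375 in CD4 and 268 and 346 in CD8 cells. Its activator Gcn1l1 had 2759 and 1679 and 2656 and 1405, lower after transplant in both. Of 17 genes of amino acid sensing by mTORC1 with values, 16 passed the filter, and these had medians of -0.25 and -0.10, among them Rptor at -0.55 and -1.31. Of 11 genes of Myc and its partners 9 passed the filter, with medians of -0.46 and -0.36, and Myc itself had 1324 and 900.3 in CD4 and 1874 and 1076 in CD8 cells. The 13 housekeeping genes had medians of -0.11 and 0.29 and were not flat, with Gapdh going from 7905 to 26481 in CD4 and from 7229 to 28796 in CD8 cells.

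**Figure D4:**
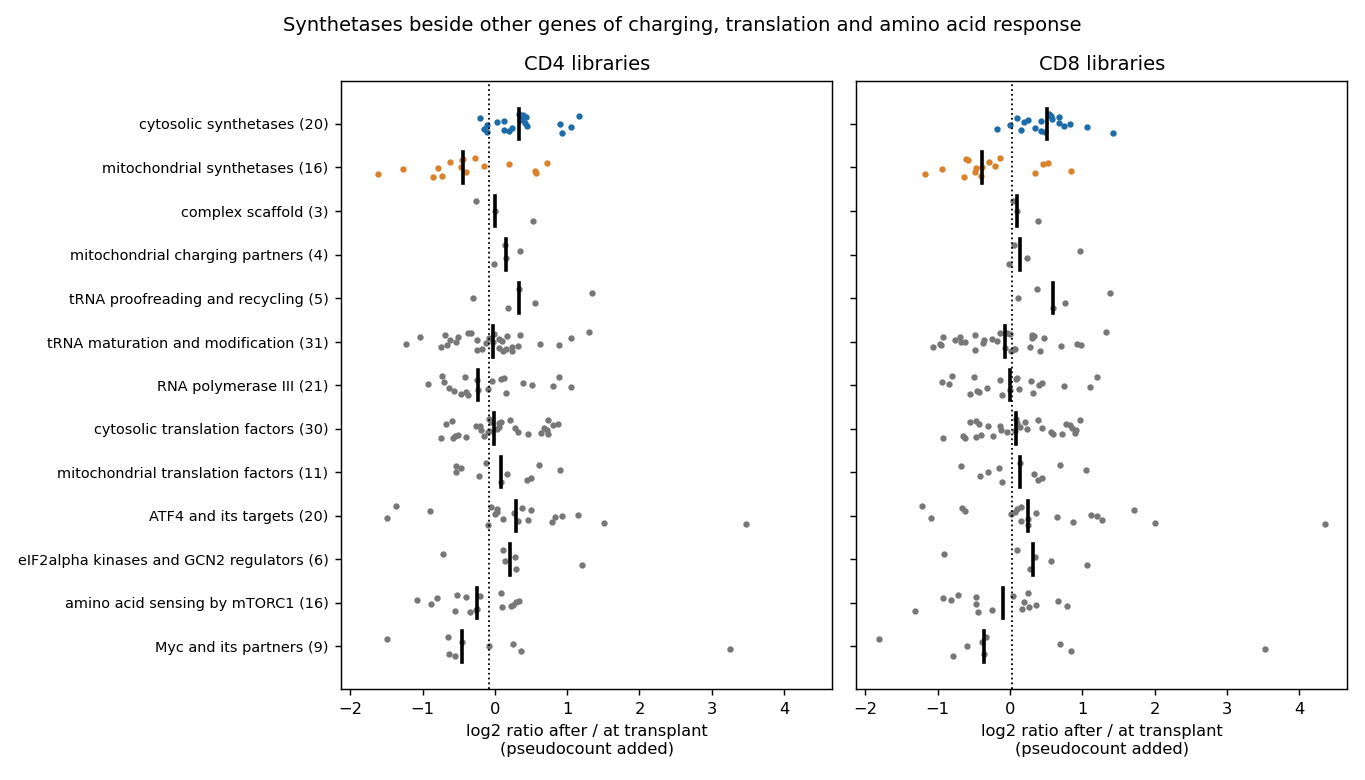
Median log2 ratio after against at transplant in CD4 and CD8 cells for the cytosolic and mitochondrial synthetases, for other lists of genes of transfer RNA metabolism, translation and amino acid sensing, and for all genes tested. The cytosolic synthetases lie at 0.34 and 0.51 and the mitochondrial ones at -0.44 and -0.39.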

How the data were processed

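The deposited values have the unit signal: per the submitters' processing notes they were made with RSEM 1.1.13 and SAMtools 1.2 on build mm9. The aligner, annotation and scaling step are not given in the sources used here. Per the labels, TruSeq libraries were made from total RNA extracted with an RNeasy kit. From the values, the upper quartile of genes above 0 was about 1000 in each library, and 86.4 to 87.6% of values lay within 0.1 of a whole number of reads, so they were taken as scaled estimated reads. The plan allowed counts or normalised values, so no count model was used. Values of 1 read were 0.664 (CD4 at), 0.877 (CD4 after), 0.826 (CD8 at) and 1.41 (CD8 after transplant). A further 2 columns were empty. The titles share 1 lane code.

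Log2 ratios used a pseudocount of 14.7 (1 ppm) and a filter on each gene's mean at 5 ppm (73.3). Groups came from the labels. The members, the 29 lists and the alternatives were chosen with earlier results of these data known. All synthetases are named, and from each other list up to 4 members with the largest ratio and a mean of at least 10 ppm (147), and the 3 most abundant markers of each other cell type, could be named. Exosc6, Ubfd1 and other genes sharing sequence, some markers at 0 in a library, and Klre1 were named after their values were seen. Transcript lengths were of APPRIS principal transcripts in GENCODE M21, and shared sequence was at least 50 bases at 95% identity in blastn 2.17.0. Python 3.11.15, numpy 2.4.6, pandas 2.3.3, scipy 1.17.1 and matplotlib 3.10.9 were used, and procedures were tested on simulated data. Alternatives were 4 other scalings, pseudocounts 0.25 and 4 times as large, other filters, a 1.5-fold threshold and shorter lists.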

Additional observations from a re-analysis of the deposited data

Results flagged for a closer look

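Sars was singled out because the seryl enzyme went one way in CD4 cells and the other way in CD8 cells. The log2 ratio after against at transplant was -0.21 in CD4 and 0.10 in CD8 cells, with counting intervals of the plain ratio wholly below 1 and wholly above 1, and the CD4 value minus the CD8 value was -0.31. The difference was not tested, since each group held 1 library. Counting intervals do not cover the scaling of the libraries. Across the alternatives the log2 ratio of Sars ranged from -0.21 to -0.06 in CD4 and from 0.0035 to 0.19 in CD8 cells. The unlike signs were kept, but either ratio could come close to no change. Cars also had unlike signs, at -0.10 and 0.48, but its interval in CD4 cells included 1.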

How the results depend on the processing

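No paired analysis was possible because the labels give no replicate numbers and each group held 1 library, and so no replicate could be left out. Across 12 alternatives the cytosolic median stayed above 0 after transplant (0.28 to 0.48 in CD4, 0.41 to 0.60 in CD8 cells) and the mitochondrial median below 0 (-0.46 to -0.30 and -0.49 to -0.25). Their difference ranged from 0.70 to 0.80 and from 0.79 to 0.93. Not all 12 could move these medians. The 1.5-fold threshold does not enter them, and leaving out the filter kept the same 20 and 16 genes. Upper quartile scaling is nearly that of the deposited values. Each scaling divides a whole library and so shifts the cytosolic and the mitochondrial median alike. Their difference can move under a scaling only through the pseudocount, so its narrow range says little about scaling. The 2-fold counts moved, with Aars, Gars, Kars, Ears2 and Lars2 close to the threshold. With trimmed means of M-values and with medians of ratios, 1 cytosolic gene was higher and 2 mitochondrial genes lower in CD8 cells, and the CD4 against CD8 median at transplant of the cytosolic genes was -0.0975 and -0.1202. With equal library totals, which moved the CD4 median of all genes from -0.08 to 0.07, the cytosolic CD4 median was 0.4846 and 4 genes were higher. With 4 times the pseudocount 0 mitochondrial genes were lower in CD8 cells, and with a filter at 20 ppm, which left 9 of them, 1 in CD4 and 0 in CD8 cells. The share of all genes past 2-fold was not counted under these scalings, this pseudocount or this filter. These 2-fold counts therefore show nothing about the family. At 1.5-fold, 4 and 7 of 20 cytosolic genes were higher and 6 and 5 of 16 mitochondrial genes lower in CD4 and CD8 cells. Of all 9933 genes, 2007 and 2469 were higher and 2277 and 2143 lower at that level. Without Gars and Kars, 1 cytosolic gene was higher in each. Chosen after seeing the data, leaving out Lars2 left 1 mitochondrial gene lower in CD4 cells. Leaving out genes that share sequence kept 15 cytosolic and 8 mitochondrial genes, with 1 cytosolic gene higher in CD8 cells and 0 mitochondrial genes lower in either. The compartment difference of CD4 against CD8 after transplant was then 0.0518, against -0.0754. In upstream bases only, the composite motif was found for 3 of 13 cytosolic genes (23.1%), against 3.45% of all windows. The NRF1 core was found for 2 of 13 cytosolic genes (15.4%) and 3 of 14 mitochondrial genes (21.4%), against 8.30% of all windows. For the cytosolic genes its share above the background thus rests on 2 genes there. The E-box was found for 0 of 14 mitochondrial genes, against 6.02% of all windows. Small medians changed sign: at transplant the CD4 against CD8 median of the mitochondrial genes ranged from -0.15 to 0.06, that of all genes from -0.04 to 0.14 and the compartment difference from -0.02 to 0.07, and after transplant the mitochondrial median ranged from -0.14 to 0.00. Depth limits the mitochondrial genes most, as Pars2, Wars2 and Ears2 have the lowest values.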
